A study of Homo sapiens with 4 samples.

Results

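The genes described here are 10 of the 63568 gene identifiers counted by RNA-Seq in HGC-27, an established human gastric carcinoma cell line. They are SNAI1, which encodes Snail, its relative SNAI2, which encodes Slug, and 8 genes whose proteins are known to set how long Snail lasts or where in the cell it sits. They were chosen by name from what is known of Snail turnover: the ubiquitin ligase subunits BTRC, FBXW7, FBXL14, FBXL5 and FBXO11, and the kinases GSK3B, CSNK1E and PAK1. All 10 had enough counts to be tested. The question was whether the RNA of these genes differed when USP47, which encodes a deubiquitinase, was knocked down. For SNAI1 the study had already reported on HGC-27 cells with USP47 knockdown. By RT-qPCR its RNA was unaffected, while the Snail protein was lower.

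Snail is a zinc finger repressor that binds E-boxes in epithelial genes and drives epithelial-mesenchymal transition (EMT), the loss of cell-cell contacts that accompanies invasion. The protein is short lived. Casein kinase 1 and then GSK3β phosphorylate it, SCF ligases recognise it through an F-box protein such as β-TrCP (the product of BTRC) and attach ubiquitin, and the proteasome degrades it, whereas deubiquitinases remove the ubiquitin. RNA-Seq reads none of these protein steps. It measures how much transcript was present of Snail and of each component.

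Of 4 libraries of polyA RNA, 2 carried control shRNA and 2 carried USP47 shRNA, as replicates 1 and 2 of each group. All cells were HGC-27 kept in RPMI medium with FBS and infected with lentivirus, which in the control group carried a scrambled shRNA. Infected cells were selected with puromycin as stable lines, and no source says that they were single clones. The study made its knockdowns with 2 independent shRNAs, but the labels do not say which of these each USP47 shRNA library carries. The series' design text calls the libraries biological duplicates and also speaks of DMSO for control cells, an agent that the labels of these libraries do not name. Total counts per library were between 15649899 and 20140273. USP47 itself was counted 1357 and 1297 times with control shRNA and 749 and 309 times with USP47 shRNA, or 49.3% and 29.5% of the control mean after scaling, so replicate 2 of the knockdown held less USP47 RNA than replicate 1. Its log2 fold change was -1.34 (SE 0.21, adjusted p = 0.00362, edgeR).

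The labelled cell type was checked against markers. Of the epithelial markers EPCAM, KRT8, KRT18, KRT19 and CDH1, none was counted more than 28 times in a library, and together they reached only 2.06 to 2.24 CPM (counts scaled to a common library size after TMM normalization) with control shRNA and 1.46 to 2.02 with USP47 shRNA. The mesenchymal markers VIM, CDH2, FN1 and ZEB1 together came to 634 to 648 CPM with control shRNA and 480 to 602 CPM with USP47 shRNA. VIM made up most of this sum, and CDH2 (N-cadherin) was counted only 3, 3, 10 and 3 times, as near 0 as the epithelial markers. Blood cell markers summed to at most 1.05 CPM and the endothelial markers found to at most 0.561 CPM in any library. The defining epithelial markers were thus at or near 0 in the control cells too.

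The stretch of SNAI1 that makes Snail a substrate of β-TrCP is shown because several of the genes below act on it. It lies in exon 2, within the coding sequence, at chr20:48600561-48600590 of GRCh37 on the plus strand, and the capitals mark 3 serine codons, those of the destruction motif (aspartate, serine, glycine, any residue, any residue, serine) and the next serine after it. The first codon shown is that of residue 95.

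SNAI1: gacAGTgggaaaggcTCCcagccccccAGC

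The motif occurs 1 time in the 264 residues of Snail and was not found in the 268 residues of Slug or the 292 residues of SNAI3 (the sequences are translations of GENCODE coding sequences on GRCh37). GSK3β phosphorylates serines of this stretch, and β-TrCP reads the phosphorylated motif.

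SNAI1 RNA was not detectably changed by USP47 shRNA. The gene (chromosome 20, 48599517 to 48605423, plus strand) was counted 199 and 309 times with control shRNA and 266 and 263 times with USP47 shRNA. After scaling this came to 11.7 and 15.8 CPM in control replicates 1 and 2 and to 12.8 and 18.3 CPM in USP47 shRNA replicates 1 and 2. The groups overlapped, and in both of them replicate 2 was the higher library. The control mean was 13.7 ± 2.84 CPM (SD, n = 2) and the knockdown mean 15.6 ± 3.91 CPM (SD, n = 2), a log2 fold change of 0.17 (SE 0.20, adjusted p = 0.612, quasi-likelihood test in edgeR, Benjamini-Hochberg over all 21932 genes tested). The 95% interval of the ratio ran from 0.819 to 1.54, and ratios within it could not be told apart with these libraries.

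SNAI1 had the largest standard error of the 10 genes, and its estimate turned on single libraries. The log2 fold change was -0.02 without control replicate 1 (adjusted p = 0.976, edgeR) and -0.11 without USP47 shRNA replicate 2 (adjusted p = 0.645, edgeR), but 0.42 without USP47 shRNA replicate 1, where it passed the test (adjusted p = 0.0241, edgeR). In each of these fits the lone library of a group was assumed to vary like the libraries of the other group. Over the 4 libraries, the 5 genes of 15368 ranked whose scaled levels ran closest to those of SNAI1 were RPL10P6, BAD, PRELID1P1, RN7SL2 and CHCHD1, with root mean square differences of 0.019 to 0.038 on the log2 CPM scale. RN7SL2 is a gene of 7SL RNA, the RNA of the signal recognition particle. All 7SL genes and copies together took 7.11% and 8.74% of the counts in control replicates 1 and 2 and 7.54% and 9.72% in USP47 shRNA replicates 1 and 2. RN7SL2 is among them and was picked for its likeness to SNAI1. The higher share in replicate 2 of both groups is therefore no separate observation. With 15368 genes ranked over only 4 libraries, close matches are easily found. A link between SNAI1 and the 7SL share was not tested.

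SNAI2 RNA was higher with USP47 shRNA. Slug shares the repressor domain and target sites of Snail and is likewise degraded through ubiquitin. The gene (chromosome 8, minus strand) stood at 17.7 and 20.9 CPM with control shRNA and at 29.0 and 25.5 CPM with USP47 shRNA. Both knockdown libraries lay above both control libraries. The log2 fold change was 0.50 (SE 0.15, adjusted p = 0.0448, edgeR), a ratio of 1.41 with a 95% interval of 1.13 to 1.77. The call was close to the threshold: it was lost with DESeq2's Wald test (adjusted p = 0.0614), with scaling to library size alone (adjusted p = 0.118, edgeR), without the filter on low counts (adjusted p = 0.0858, edgeR) and when control replicate 1 (adjusted p = 0.490, edgeR) or control replicate 2 (adjusted p = 0.152, edgeR) was left out. The estimate stayed between 0.39 and 0.62 in all fits with a library left out.

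**Figure D1:**
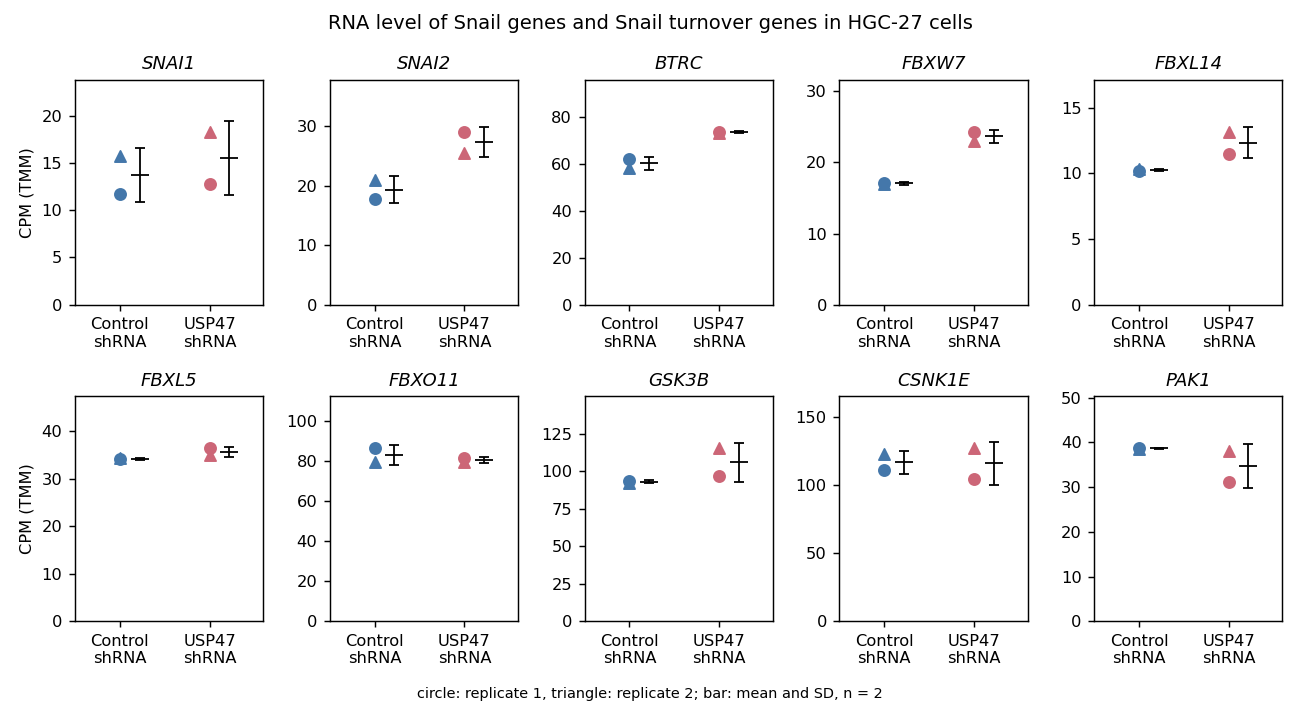
RNA level of each of the 10 genes in CPM after TMM normalization (vertical axes start at 0 and differ between panels), with circles for replicate 1, triangles for replicate 2 and bars for the mean and SD of 2 libraries per group. SNAI1 overlaps between groups, at 11.7 and 15.8 CPM against 12.8 and 18.3 CPM. SNAI2, BTRC, FBXW7, FBXL14, FBXL5 and GSK3B lie higher in both USP47 shRNA libraries than in both control libraries. Of all genes tested, 29.3% did so.

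Of the 10 genes, 2 passed the test, SNAI2 and FBXW7, and both were higher with USP47 shRNA. Over all genes tested 16.1% were called, 6.52% higher and 9.56% lower. Among the 10198 genes with at least the average CPM of FBXL14, the lowest of the 10 in CPM, 19.1% were called and 9.78% were called higher. A count of 2 in 10 (20%) is near the shares called in either direction. It is above the shares called higher, but it rests on 2 genes and no test was made over the 10. In 6 genes both knockdown libraries were above both control libraries and in 1, PAK1, both were below, against 61.0% of all genes tested whose groups did not overlap (29.3% higher and 31.7% lower). The median log2 fold change was 0.18 over the 10 genes and -0.0083 over all genes tested.

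BTRC and FBXW7 encode WD40 F-box proteins, which bind substrates phosphorylated at short motifs. BTRC (chromosome 10, 103113790 to 103317078, plus strand) gave 62.1 and 58.1 CPM with control shRNA and 73.6 and 73.0 CPM with USP47 shRNA. The knockdown libraries were 122% and 121% of the control mean and nearly equal to each other. The difference did not pass the test over all genes (log2 fold change 0.29, SE 0.12, unadjusted p = 0.0411, adjusted p = 0.137, edgeR), although it passed without USP47 shRNA replicate 1 (adjusted p = 0.0471, edgeR) and without replicate 2 (adjusted p = 0.0444, edgeR). β-TrCP is also known as a binding partner of USP47, and its close relative FBXW11, which can take its place in SCF ligases, stood at 65.0 and 67.1 CPM against 54.4 and 59.5 CPM (log2 fold change -0.21, adjusted p = 0.263, edgeR). The 2 relatives thus had estimates of opposite sign, neither of which passed, and the difference between them was not tested.

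FBXW7 (chromosome 4, 153241696 to 153457244, minus strand), best known as the tumour suppressor that directs cyclin E, MYC and Notch to degradation, rose from 17.2 and 16.9 CPM to 24.3 and 23.1 CPM. The knockdown libraries were 143% and 135% of the control mean, and the control libraries differed little. The log2 fold change was 0.48 (SE 0.14, adjusted p = 0.0389, edgeR), a ratio of 1.39 with a 95% interval of 1.13 to 1.71. The call was lost with DESeq2's Wald test (adjusted p = 0.0675), with library size alone (adjusted p = 0.104, edgeR), with no filter (adjusted p = 0.0724, edgeR) and without either control library (largest adjusted p = 0.347, edgeR). The estimate itself moved little, between 0.45 and 0.52 with single libraries left out.

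The other F-box genes did not pass the test. FBXL14, whose protein binds Snail and Slug without need of GSK3β phosphorylation, lies on chromosome 12 (1675159 to 1703747, minus strand) and was measured at 10.2 and 10.3 CPM with control shRNA and 11.5 and 13.2 CPM with USP47 shRNA. Its log2 fold change was 0.26 (95% interval -0.08 to 0.61, adjusted p = 0.274, edgeR). FBXL5, a nuclear ligase subunit for Snail that also senses iron (chromosome 4, 15606004 to 15683302, minus strand), gave 34.1 and 34.3 CPM against 36.4 and 34.9 CPM. For both genes the knockdown libraries were the higher ones, but for FBXL5 the log2 fold change was only 0.06 (95% interval -0.22 to 0.34, adjusted p = 0.777, edgeR) and it fell to -0.0051 with scaling to library size alone. FBXO11, which targets Snail after phosphorylation by protein kinase D1 (chromosome 2, 48016455 to 48133637, minus strand), gave 86.2 and 79.4 CPM against 81.4 and 79.5 CPM. These groups overlapped, with a log2 fold change of -0.04 (95% interval -0.32 to 0.23, adjusted p = 0.853, edgeR). The FBXO11 span overlaps MSH6 on the other strand, which had 1826 to 3282 counts in a library. Whether the counting used strand is not stated, so reads of these 2 genes may not be fully separated. The same holds for BTRC and RNU2-59P, a small nuclear RNA copy on the other strand within its span, with up to 530 counts in a library. CSNK1E shares its strand with a readthrough transcript from TPTEP2. The readthrough was not counted as a gene of its own, and the gene TPTEP2 had 158 to 436 counts in a library.

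None of the 3 kinases passed the test by edgeR, at an adjusted or an unadjusted p. GSK3B (chromosome 3, 119540168 to 119813841, minus strand), which phosphorylates Snail for nuclear export and degradation, stood at 93.7 and 92.4 CPM with control shRNA and 96.6 and 115 CPM with USP47 shRNA. Replicate 2 of the knockdown was set apart from the other 3 libraries. The log2 fold change was 0.19 (95% interval -0.11 to 0.48, adjusted p = 0.365, edgeR), and without USP47 shRNA replicate 1 it was 0.32 and passed (adjusted p = 0.0223, edgeR). CSNK1E, the casein kinase 1ε that primes Snail for GSK3β (chromosome 22, 38686697 to 38714089, minus strand), gave 111 and 122 CPM against 105 and 127 CPM. The knockdown libraries enclosed the control libraries, and the log2 fold change was -0.01 (95% interval -0.32 to 0.30, adjusted p = 0.969, edgeR), with a sign that depended on the setting. PAK1, which phosphorylates Snail and favours its place in the nucleus (chromosome 11, 77033062 to 77185680, minus strand), was the only one of the 10 with both knockdown libraries below both control libraries, at 38.7 and 38.6 CPM against 31.2 and 38.1 CPM. That difference was carried mainly by USP47 shRNA replicate 1 (80.6% of the control mean, against 98.6% in replicate 2), and its log2 fold change was -0.16 (95% interval -0.47 to 0.15, adjusted p = 0.457, edgeR).

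**Figure D2:**
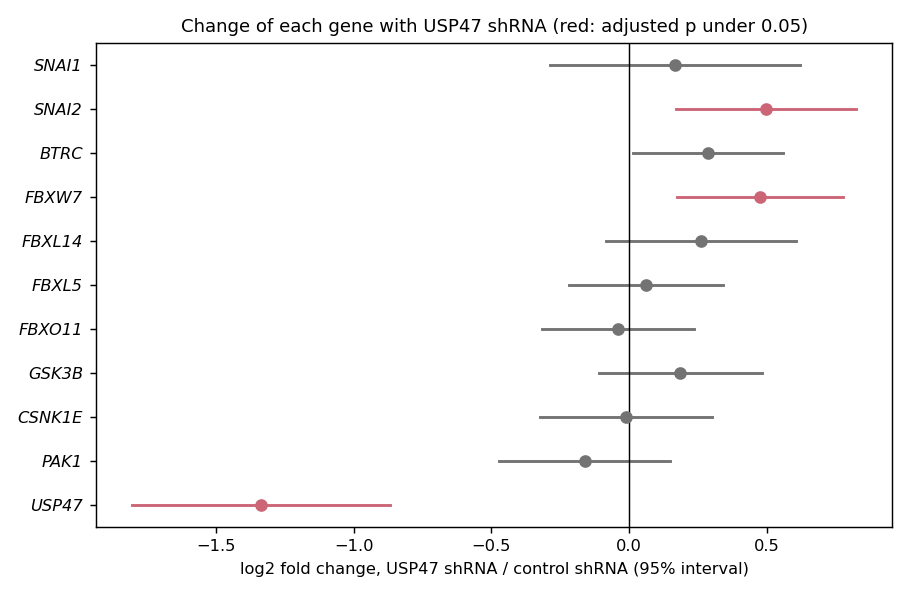
Log2 fold change of USP47 shRNA over control shRNA (horizontal axis, points) with its 95% interval (lines) for the 10 genes and for USP47, red where the adjusted p of edgeR's quasi-likelihood test was under 0.05. The intervals of 7 of the 10 genes include 0, and USP47 at -1.34 lies apart from all of them.

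The 2 knockdown libraries differed in USP47 (49.3% and 29.5% of the control mean), and the 10 genes did not follow a common order between them. SNAI1 was at 93.1% and 133% of its control mean, GSK3B at 104% and 124% and FBXL14 at 112% and 128%, with the higher value in the library with less USP47. SNAI2 was at 150% and 132% and FBXW7 at 143% and 135%, with the higher value in the library with more USP47. With 2 knockdown libraries, a relation to the level of USP47 was not tested.

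**Figure D3:**
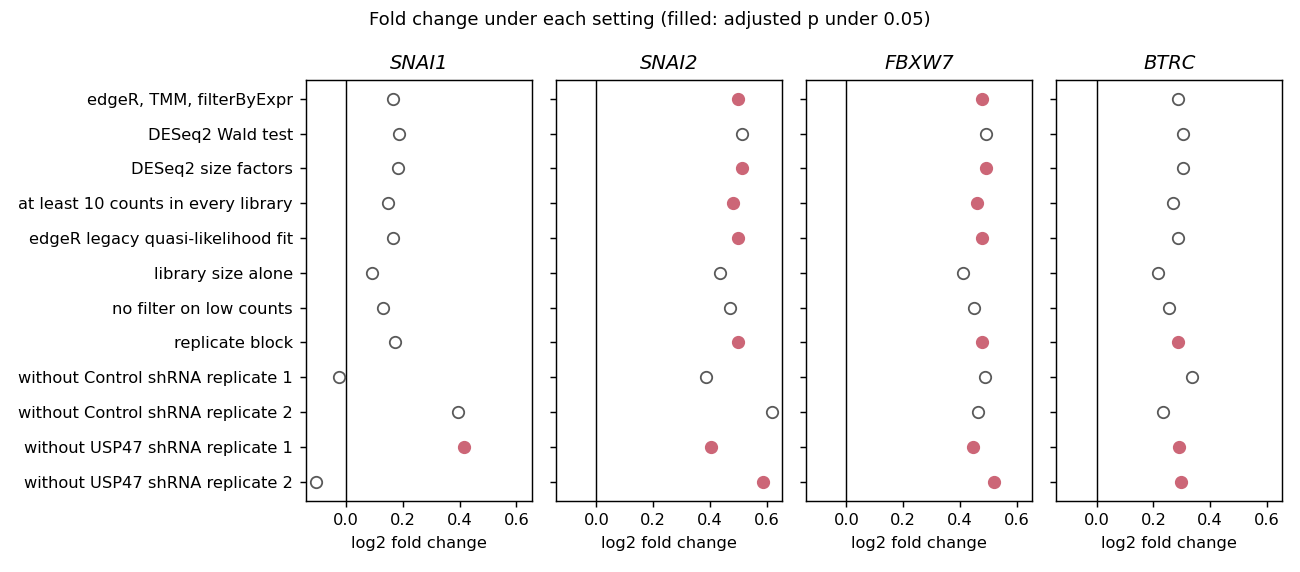
Log2 fold change (horizontal axes) of SNAI1, SNAI2, FBXW7 and BTRC under the reported fit and each of 11 alternatives (rows), filled where the adjusted p was under 0.05. SNAI1 crosses 0 when single libraries are left out, from -0.11 to 0.42, whereas SNAI2, FBXW7 and BTRC stay above 0 and change mainly in whether they pass.

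Levels were compared between genes on the deposited TPM scale (counts divided by gene length and set to a common total). In the control libraries CSNK1E was the most abundant of the 10, with a mean TPM of 23.7 ± 0.460 (SD, n = 2), and FBXW7 the least abundant on this scale, with a mean TPM of 2.27 ± 0.226 (SD, n = 2). FBXO11 and GSK3B followed CSNK1E with mean TPM values of 16.0 and 15.9, and their libraries overlapped. BTRC, SNAI2, SNAI1 and FBXL5 formed a run of mean TPM values of 12.5, 11.5, 11.1 and 10.2, in which each gene overlapped its neighbour. PAK1 at 8.41 and FBXL14 at 6.14 lay below them, clear of their neighbours. SNAI1 and SNAI2 were thus present at like levels in control cells, with TPM ratios of SNAI2 to SNAI1 of 1.12 and 0.980. With USP47 shRNA the ratios were 1.68 and 1.03.

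The TPM scale gave a different picture of overlap between the groups. SNAI1 stood at a TPM of 10.1 and 12.0 with control shRNA and 11.0 and 11.8 with USP47 shRNA, which overlap as the CPM did. SNAI2 stood at 11.3 and 11.7 against 18.5 and 12.1, so that in TPM its difference lay mostly in USP47 shRNA replicate 1. BTRC, clear of overlap in CPM, stood at 13.8 and 11.3 against 16.2 and 12.0 and overlapped. Of the 10 genes, 2 were higher without overlap in TPM (SNAI2 and FBXW7) and 2 lower (CSNK1E and PAK1), compared with 6 and 1 in CPM. TPM values share a fixed total, of which 7SL genes and copies took 33.8% and 37.9% with control shRNA and 35.9% and 39.0% with USP47 shRNA. The part of this share in the difference between CPM and TPM was not tested.

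The genes around Snail were counted in 8 lists written from general knowledge, with earlier results of these data known. Among the transcription factors of EMT, 6 of 7 were tested and SNAI2 was the only one to pass, with a list median of 0.12. TWIST2 had too few counts. The others, ZEB1, ZEB2, TWIST1, SNAI3 and SNAI1, did not pass. TWIST1, named after its values were seen, stood at 109 and 105 CPM against 111 and 165 CPM, a difference that lay in USP47 shRNA replicate 2 (log2 fold change 0.37, adjusted p = 0.178, edgeR). Of 12 further ligases described for Snail or Slug, 1 passed and was lower: MDM2, the ligase of p53, fell from 55.8 and 58.0 CPM to 42.5 and 41.7 CPM (log2 fold change -0.43, SE 0.12, adjusted p = 0.0386, edgeR). Over all genes 16.1% were called, so 1 in 12 is no excess, and MDM2 did not pass with DESeq2's Wald test (adjusted p = 0.0686). The median of these ligases was 0.16.

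Of 9 genes for the SCF core and for neddylation, the attachment of NEDD8 that switches cullins on, 1 was called higher and 1 lower, against 6.52% and 9.56% of all genes tested, and both are neddylation genes. UBE2M, the NEDD8-conjugating enzyme, rose from 49.6 and 57.3 CPM to 70.7 and 86.2 CPM (log2 fold change 0.55, SE 0.14, adjusted p = 0.0289, edgeR). NEDD8 itself fell from 35.0 and 35.3 CPM to 22.2 and 23.8 CPM (log2 fold change -0.61, SE 0.13, adjusted p = 0.0127, edgeR). The core subunits CUL1, SKP1 and RBX1 did not pass, with adjusted p of 0.324, 0.337 and 0.465 in edgeR.

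Deubiquitinases described for Snail or Slug were the opposite arm. Of 17 found, 14 were tested and 3 were called, all lower, with a median of -0.20 that includes USP47. Of the 3, 1 is USP47, the knockdown target, which leaves 2 of 13 others, near the 16.1% called over all genes in either direction. Both of these were lower, and 9.56% of all genes tested were called lower. USP9X, a large X-linked deubiquitinase, fell from 142 and 133 CPM to 103 and 89.8 CPM (log2 fold change -0.51, SE 0.13, adjusted p = 0.0277, edgeR). PSMD14, the deubiquitinase of the proteasome lid, fell from 41.7 and 40.1 CPM to 31.9 and 24.4 CPM (log2 fold change -0.53, SE 0.15, adjusted p = 0.0388, edgeR), a call lost with library size alone (adjusted p = 0.0769, edgeR) and without the count filter (adjusted p = 0.0546, edgeR). USP26, USP29 and USP17L2 had fewer than 10 counts in every library.

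Of 20 other kinases, phosphatases and GSK3 partners, 2 passed and both were lower, a share near the 9.56% called lower among all genes. AKT1, which inhibits GSK3β by phosphorylation, fell from 196 and 214 CPM to 128 and 146 CPM (log2 fold change -0.58, SE 0.14, adjusted p = 0.018, edgeR). CSNK2A1, the catalytic subunit of casein kinase 2, fell from 213 and 214 CPM to 149 and 156 CPM (log2 fold change -0.49, SE 0.13, adjusted p = 0.0281, edgeR). Its intronless copy CSNK2A3 had 101 to 153 counts in a library, and reads shared by such copies are uncertain. The median of this list was 0.098.

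Among 17 corepressors and cofactors of Snail, 2 were called higher and 1 lower, with a median of 0.0032 and a count near the 16.1% called over all genes. HDAC1, the deacetylase that Snail recruits to CDH1, rose from 87.6 and 78.4 CPM to 115 and 134 CPM (log2 fold change 0.59, SE 0.14, adjusted p = 0.018, edgeR). CREBBP, an acetyltransferase that modifies Snail, rose from 243 and 255 CPM to 325 and 372 CPM (log2 fold change 0.49, SE 0.14, adjusted p = 0.0381, edgeR). LOXL3, a lysyl oxidase that binds Snail, fell from 11.4 and 10.8 CPM to 4.66 and 4.67 CPM, the largest change in this list (log2 fold change -1.24, SE 0.17, adjusted p = 0.0018, edgeR).

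Genes that Snail is known to repress and to raise were both represented among the falls. Of 14 repressed genes, 11 were tested and 4 were called, all lower (9.56% of all genes tested were called lower), with a median of -0.37. The count was 2 with DESeq2's Wald test, with library size alone and with no filter on low counts. They were the tight junction gene CLDN7 (2.89 and 3.47 CPM against 1.01 and 0.906 CPM, adjusted p = 0.00362, edgeR), the desmosome genes DSP (48.3 and 42.5 CPM against 33.9 and 29.3 CPM, adjusted p = 0.0303, edgeR) and PKP2 (2.59 and 2.80 CPM against 1.44 and 1.53 CPM, adjusted p = 0.0409, edgeR), and EPCAM. The EPCAM call rests on 12 and 11 counts against 3 and 3 (adjusted p = 0.0416, edgeR), and DESeq2 gave it no adjusted p. All but DSP stood below 4 CPM, and CDH1, the classical Snail target, was counted only 13, 12, 28 and 8 times (log2 fold change 0.56, adjusted p = 0.413, edgeR). KRT18, ESRP1 and CRB3 had fewer than 10 counts in every library.

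Of 10 genes that rise with Snail, 7 were tested and 2 were called, again lower, with a median of -0.14. Over all genes tested, 9.56% were called lower. The study had already reported lower FN1 and MMP2 RNA in HGC-27 cells with USP47 knockdown, so these 2 falls were known in advance. FN1, the fibronectin gene, fell from 73.1 and 73.8 CPM to 26.2 and 32.0 CPM (log2 fold change -1.34, SE 0.14, adjusted p = 0.000602, edgeR). MMP2, a matrix metalloproteinase gene, fell from 28.3 and 32.1 CPM to 11.3 and 16.0 CPM (log2 fold change -1.16, SE 0.18, adjusted p = 0.00326, edgeR). VIM, the intermediate filament gene, did not pass (log2 fold change -0.14, adjusted p = 0.623, edgeR), and MMP9 had fewer than 10 counts in every library. Of the 16 list genes called apart from SNAI2 and USP47, FN1, MMP2, LOXL3 and CLDN7 kept their calls under all 11 alternatives, and the other 12 lost theirs when either control library was left out. With all libraries kept, calls were also lost for MDM2 and PKP2 with DESeq2's Wald test, for DSP, EPCAM, PKP2 and PSMD14 with scaling to library size alone, and for EPCAM, PKP2 and PSMD14 with no filter on low counts.

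**Figure D4:**
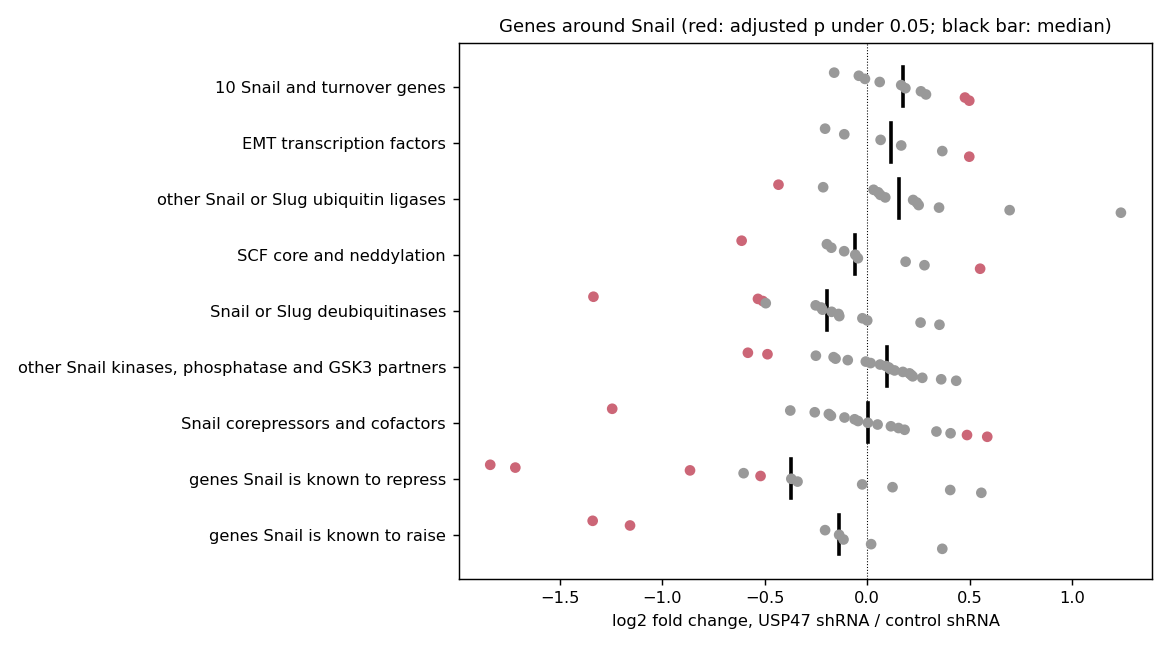
Log2 fold change of USP47 shRNA over control shRNA (horizontal axis) for every tested gene of the 10 and of the 8 lists around Snail, 1 point a gene, red where the adjusted p of edgeR was under 0.05, with the median of each list as a black bar. List medians lie between -0.37 for genes Snail is known to repress and 0.18 for the 10 genes. All called repressed genes lie below 0, as do all called deubiquitinases, among them USP47, the knockdown target.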

How the data were processed

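RNA-Seq libraries of HGC-27 cells, 2 with control shRNA and 2 with USP47 shRNA, were grouped by their labels. Per the labels and methods, the authors trimmed bases below a quality of 20, aligned to hg19 with STAR 2.7.5c, removed duplicates with SAMtools 1.9, and deposited counts per gene (featureCounts is among the listed tools; strand setting and annotation are not given in the sources used here). They also deposited TPM values, per gene length, and FPKM values, which were not used here. Removing duplicates without molecular identifiers lowers abundant genes most, and whether the deposited counts were lowered in this way was not tested. The labels name a stranded ABclonal kit and the methods a VAHTS kit, and the methods speak of triplicates where 2 libraries per group were analysed here. p-values measure only the spread between these libraries.

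Counts were tested with edgeR 4.0.16 in R 4.3.3 (TMM, filterByExpr, robust quasi-likelihood fit, both directions, Benjamini-Hochberg adjustment over 21932 genes, called at an adjusted p under 0.05). The SE of each log2 fold change was its absolute value over the root of F. An exact permutation test of 2 against 2 libraries cannot go below 0.333 and was not used. TPM values were compared only as levels, with no test. Positions are gene spans of GENCODE release 44 lifted to GRCh37. The steps were tested on simulated counts.

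Alternatives were DESeq2 1.42.0, other scalings and filters, edgeR's legacy fit, the replicate number as a block, and each library left out. The 10 genes, the 8 lists and all alternatives were chosen with earlier results of these data known. From each list the called genes were named, and genes with fewer than 10 counts in every library by name only. CDH1, VIM, TWIST1, FBXW11 and SCF core subunits were named beyond that rule, after their values were seen. For SNAI1 the 5 tested genes nearest in centred log2 CPM were named, from those averaging at least 1 in log2 CPM. PECAM1 and USP27X matched no symbol. Some list genes are not reported here by name.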

Additional observations from a re-analysis of the deposited data

How the results depend on the processing

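USP47 stayed lower under all 11 alternatives, and the SNAI1 difference did not pass under those that kept all libraries (log2 fold change 0.09 to 0.19). Leaving out single libraries gave -0.11 to 0.42 for SNAI1, 0.39 to 0.62 for SNAI2, 0.45 to 0.52 for FBXW7, 0.23 to 0.34 for BTRC, 0.058 to 0.32 for GSK3B, -0.15 to 0.13 for CSNK1E and -0.10 to 0.020 for FBXO11, with 0 to 5 of the 10 genes and 1230 to 7270 of all genes called. The 2 calls among the 10 genes, SNAI2 and FBXW7, became 0 with DESeq2's Wald test (0.51 and 0.49; 2 genes at an unadjusted p under 0.05), with library size alone (0.44 and 0.41; 2 genes) and with no filter on low counts (0.47 and 0.45; 2 genes). They were 0 by edgeR without control replicate 1 (0 genes at an unadjusted p under 0.05) and without control replicate 2 (1 gene), and 5 and 3 without USP47 shRNA replicates 1 and 2. CSNK1E turned to 0.0048 with DESeq2's Wald test and 0.0049 with its size factors, and FBXL5 to -0.0051 with library size alone. Library size alone moved the median of all genes to -0.07, and the calls that were higher from 40.5% to 31.5%.

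The replicate numbers share only a number, since no source ties them to a batch and there are 2 pairs (correlation of deviations 0.213). With the replicate number as a block, 7422 genes were called in place of 3527, and of the 10 genes BTRC was added to the calls (0.29, adjusted p = 0.0218, edgeR). SNAI1 had 199 to 309 counts in a library. With 2 libraries per group, its interval spans ratios from 0.819 to 1.54, and ratios within it could not be told apart. Causes of these shifts were not tested.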
